A study of Rattus norvegicus with 6 samples.

Results

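The 10 genes described here belong to bone morphogenetic protein (BMP) signalling: the ligands Bmp2 and Bmp4, the secreted antagonist Grem1, the inhibitory Smads Smad6 and Smad7, the transcriptional regulators Id1, Id2, Id3 and Id4, and the transcription factor Atoh8. They were taken by symbol from a table of 16499 symbols, and all 10 were found, each on a single transcript row, so that the rule of keeping the row with the highest mean had nothing to choose. The members were chosen with earlier results of these data known. The set is treated as selected on Atoh8, whose measured level was already known to be among the largest falls against standard serum. Whether the levels of the Id genes or other members also had a part in the choice is not stated. Atoh8 values against that serum are therefore given as a description with no test. Counts of called genes against that serum are over the other 9, and may not be independent of the choice.

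Poly(A) RNA was sequenced from synovial fibroblast-like cells (RASFLs), the adherent cells grown out of the joint lining, of female Wistar rats with collagen-induced arthritis that had received no therapy. Each rat's cells were split over 3 culture sera, and with 2 rats this gave 6 libraries, 2 per serum. The sera were fetal bovine serum (FBS, the standard condition), blood serum of untreated animals (MS−, AP- in the labels), and blood serum of animals after mechanical stimulation by needle (MS+, called acupuncture, AP+, in the labels; day 18). Library 1 of each serum comes from the cells of rat 1 and library 2 from those of rat 2, so the replicate is the rat that gave the cells. Neither the animals' age nor the number of animals that gave each serum is stated, and 1 label field calls the MS− donors healthy where the title and the disease field do not. FBS differs from both rat sera in species as well as in origin, and these cannot be told apart.

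BMPs are secreted dimers that bind type I and type II receptor kinases, which phosphorylate Smad1, Smad5 and Smad9. With Smad4, these activate target genes, among which the Id genes, Smad6, Smad7 and Atoh8 are well known. Id proteins carry a helix-loop-helix without a DNA-binding basic region and hold E proteins away from E-box sites, while Smad6 and Smad7 feed back on the receptors and gremlin-1 binds BMP2 and BMP4 outside the cell. In the joint, BMPs are known for their part in cartilage and bone formation, and synovial fibroblasts are a known source of BMPs and of gremlin.

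The libraries held 5463316 to 5991889 reads, and a detection floor of 3 reads per library equals 0.491 to 0.551 CPM, a limit that covers counting error only. All 11 fibroblast markers examined had reads, with summed levels of 81170 to 88030 CPM in FBS, 62830 to 65440 CPM in MS− and 71280 to 73960 CPM in MS+, although Dcn (7 reads over all 6 libraries) and Lum (17 reads) were near the floor. Prg4 was also low, with 67 reads over all 6 libraries. Reads were found for 3 of 9 listed macrophage and leukocyte markers, summing to 13.8 to 14.6 CPM in FBS, 17.2 to 20.5 CPM in MS− and 16.3 to 17.7 CPM in MS+, with Ptprc, Cd163, Lyz2, Aif1, Itgam and Cd3e at 0. Most of this sum was Cd14 (518 reads over all 6 libraries), beside Cd68 (31 reads) and Csf1r (17 reads). Of 6 endothelial markers 2 had reads, summing to 0.181 to 1.47 CPM per library, with Cdh5, Emcn, Cldn5 and Tie1 at 0. Of 6 chondrocyte and osteoblast markers 5 had reads, summing to 2795 to 3134 CPM in FBS, 1808 to 2118 CPM in MS− and 2892 to 3081 CPM in MS+, mostly Acan, with Sp7 at 0. Alpl, the tissue-nonspecific alkaline phosphatase of bone and a known BMP-responsive gene, named after its values were seen, averaged 165 ± 63.5, 316 ± 54.0 and 377 ± 45.6 CPM (SD, n = 2 each) in FBS, MS− and MS+ and rose in MS+ over FBS (log2 fold change 1.24, limma adjusted p 0.0326). Acan, the other gene of this list that was tested, did not rise against FBS. It gave -0.10 on the log2 scale in MS+ (limma adjusted p 0.721) and fell by 0.78 in MS− (0.0409, and 4.88e-05 with the block). In MS+ over MS− both genes were higher, Acan by 0.68 (limma adjusted p 0.147, and 0.000693 with the block) and Alpl by 0.26 (0.711 and 0.155). The 7 cell cycle markers summed to 256 to 258 CPM in FBS, 67.1 to 75.4 CPM in MS− and 98.9 to 108 CPM in MS+. The part of these marker differences in the values below was not tested, and in bulk RNA fewer cells that express a gene cannot be told apart from less RNA per cell.

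The design sets serum of stimulated animals against serum of unstimulated ones, with FBS as the standard culture. Where the MS− serum was drawn before any therapy, as 1 description has it, the sera also differ in the day of disease, which cannot be told apart from stimulation. Against FBS, the cells in MS+ serum had less Id1 and Id3 and more Bmp2. By limma on log2(CPM + 1), these 3 of 9 genes passed a Benjamini-Hochberg adjusted p of 0.05 over all 9820 features tested, where 9.61% of all features did. In MS− serum 1 of 9 passed, Id1, which was lower than in FBS (background 4.81%). Since earlier results were known when the members were chosen, these calls against FBS are not taken as independent tests. Between MS+ and MS−, 0 of 10 passed in limma (background 0.0204%), edgeR or limma-voom and 1 in DESeq2 (Id3), with 3 at unadjusted p under 0.05 in limma (Id3, Id4 and Bmp4). Of all 9820 features, 1446 were at unadjusted p under 0.05 in that limma comparison. With the rat entered as a block, the calls were 6 of 9 for MS+ against FBS (background 28.2%), 6 of 9 for MS− against FBS (background 20.5%) and 4 of 10 for MS+ against MS− (background 10.1%). The comparisons against FBS share the FBS libraries, and with 1 library per rat and serum the p-values measure the spread between these libraries.

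**Figure D1:**
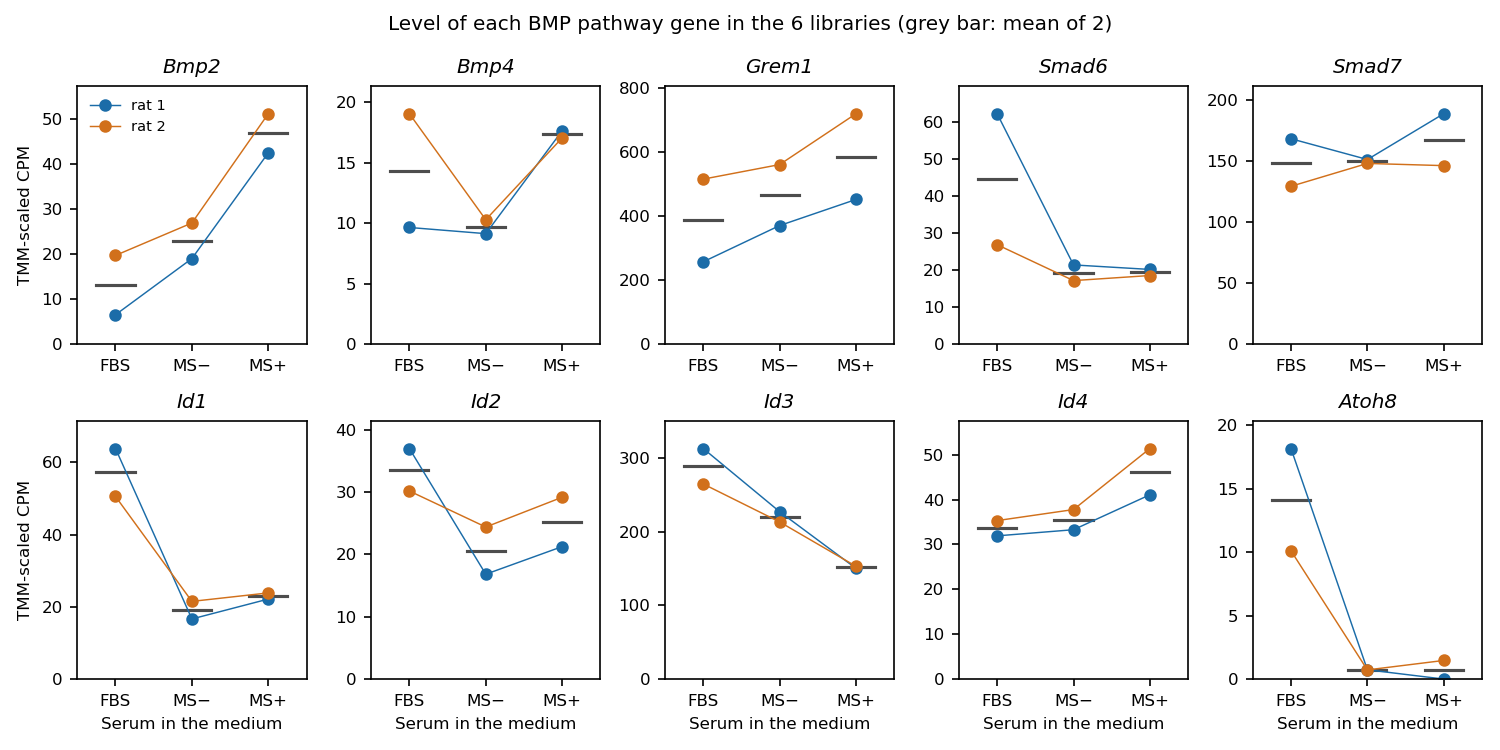
Level of each gene (TMM-scaled CPM, linear axes from 0) in the 3 culture sera; points are libraries, joined within the cells of rat 1 (blue) and rat 2 (orange), and grey bars are means of 2. Atoh8 falls from 18.2 and 10.1 CPM in FBS to at most 1.47 CPM in the rat sera, while Bmp2 is highest in MS+ in the cells of both rats.

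Among the ligands, Bmp2, which induces cartilage and bone, was measured at 6.55 and 19.7 CPM in FBS (rat 1 and rat 2), 19.0 and 26.9 CPM in MS−, and 42.5 and 51.2 CPM in MS+. Both MS+ libraries were thus above all 4 others, whereas the FBS and MS− libraries overlapped. The transcript (NM_017178; rn4 chromosome 3, 121372692 to 121381235, plus strand) averaged 13.1 ± 9.32 CPM in FBS, 23.0 ± 5.59 CPM in MS− and 46.9 ± 6.14 CPM in MS+ (SD, n = 2 each). Bmp2 rose in MS+ over FBS by 1.93 on the log2 scale (SE 0.44, limma adjusted p 0.0412; 7.98e-06 with the rat as a block), a mean 3.57 times as high. The rise was of a different size in the cells of each rat, 6.49 times in rat 1 and 2.60 times in rat 2. Its call held without FBS library 2 (limma adjusted p 0.0144, log2 fold change 2.66). It was lost without FBS library 1 (0.0763, log2 fold change 1.20), MS− library 1 (0.0664), MS− library 2 (0.0660), MS+ library 1 (0.154) or MS+ library 2 (0.164) in limma, and without the filter on low values (0.0846). Over MS−, the MS+ mean was 2.04 times as high, with 2.24 times in rat 1 and 1.90 times in rat 2. On the log2 scale this was 1.01 (limma adjusted p 0.351; 0.00690 with the block). MS− against FBS gave 0.92 (limma adjusted p 0.289; 0.00608 with the block), and without FBS library 2 it gave 1.65 with a limma adjusted p of 0.0427.

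Bmp4, the other ligand bound by gremlin-1 (NM_012827; chromosome 15, 22283171 to 22286757, minus strand), was measured at 9.66 and 19.1 CPM in FBS, 9.15 and 10.3 CPM in MS−, and 17.7 and 17.1 CPM in MS+. The MS+ libraries were both above the MS− libraries, and FBS library 1 lay between the MS− libraries while FBS library 2 was the highest of all 6. Means were 14.4 ± 6.65, 9.72 ± 0.818 and 17.4 ± 0.416 CPM (SD, n = 2 each). MS+ over MS− gave 0.78 on the log2 scale (SE 0.29; limma adjusted p 0.293), and Bmp4 rose with the rat as a block (0.0301 by the same tool). Against FBS neither serum passed with or without the block (limma adjusted p 0.510 and 0.272 for MS+, 0.434 and 0.157 for MS−), and the 95% limma interval of MS+ over FBS ran from -0.36 to 1.02. The ratio of Bmp2 to Bmp4 CPM, which is not scaled for transcript length and serves only to compare libraries, was 0.678 and 1.035 in FBS, 2.08 and 2.61 in MS−, and 2.41 and 3.00 in MS+.

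Grem1, which encodes the antagonist gremlin-1 (NM_019282; chromosome 3, 99597201 to 99608935, minus strand), was measured at 258 and 516 CPM in FBS, 371 and 562 CPM in MS−, and 453 and 721 CPM in MS+. In every serum the cells of rat 2 had more Grem1 than those of rat 1, by 0.60 to 1.00 on the log2 scale, and the groups overlapped in all 3 comparisons. Within each rat the order was FBS, then MS−, then MS+. Means were 387 ± 183, 466 ± 135 and 587 ± 190 CPM (SD, n = 2 each). No comparison passed without the block (limma adjusted p 0.310 for MS+ over FBS, 0.676 for MS− over FBS and 0.747 for MS+ over MS−). With the rat as a block all 3 passed: the log2 fold change was 0.65 for MS+ over FBS (limma adjusted p 0.000115), 0.32 for MS− over FBS (0.0242) and 0.32 for MS+ over MS− (0.0419). With 1 library left out, in fits without the block, these log2 fold changes ran from 0.15 to 1.15, from -0.18 to 0.82 and from -0.01 to 0.66 in turn.

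The inhibitory Smads differed from each other. Smad6, which acts mainly on BMP receptors (NM_001109002; chromosome 8, 68144882 to 68212701, minus strand), was measured at 62.2 and 26.9 CPM in FBS, 21.4 and 17.2 CPM in MS−, and 20.2 and 18.5 CPM in MS+. Both FBS libraries lay above all 4 rat serum libraries, but FBS library 1 was far above FBS library 2. Means were 44.5 ± 25.0 CPM in FBS, 19.3 ± 2.99 CPM in MS− and 19.4 ± 1.16 CPM in MS+ (SD, n = 2 each), which is 43.5% of the FBS mean in MS+ and 43.3% in MS−. The log2 fold changes of -1.04 (MS+) and -1.06 (MS−) missed the threshold (limma adjusted p 0.112 and 0.152), and Smad6 fell in both sera with the rat as a block (0.00104 and 0.00133). The size of these differences rested on FBS library 1: without it they were -0.45 and -0.47 (limma adjusted p 0.290 and 0.406), and without FBS library 2 they were -1.64 and -1.65 (0.0244 and 0.0273). In DESeq2 both passed (adjusted p 0.0362 and 0.0442). MS+ over MS− gave 0.01 on the log2 scale, with a 95% limma interval from -0.82 to 0.85 (-0.41 to 0.43 with the block).

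Smad7, which inhibits both the TGF-beta and the BMP branch (NM_030858; chromosome 18, 72294803 to 72323354, plus strand), was measured at 168 and 129 CPM in FBS, 151 and 148 CPM in MS−, and 189 and 146 CPM in MS+. The groups overlapped in every comparison. Means were 149 ± 27.6, 149.5 ± 2.29 and 167 ± 30.1 CPM (SD, n = 2 each), and no comparison passed with or without the block. The 95% limma interval with the block was -0.04 to 0.38 for MS+ over FBS, -0.19 to 0.23 for MS− over FBS and -0.06 to 0.36 for MS+ over MS−.

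The 4 Id genes did not share a pattern across the sera. Id1, an inhibitor of E proteins and a standard readout of BMP receptor activity (NM_012797; chromosome 3, 143086162 to 143087289, plus strand), was measured at 63.8 and 50.6 CPM in FBS, 16.6 and 21.5 CPM in MS−, and 22.2 and 23.9 CPM in MS+. Both FBS libraries were above all rat serum libraries, and MS+ lay just above MS− in both rats. Means were 57.2 ± 9.39, 19.1 ± 3.44 and 23.0 ± 1.20 CPM (SD, n = 2 each). Id1 fell by 1.27 on the log2 scale in MS+ against FBS (SE 0.18, limma adjusted p 0.0102; 2.07e-05 with the block), to 40.2% of the FBS mean. In MS− it fell by 1.54 (SE 0.18, limma adjusted p 0.00637; 3.55e-06 with the block). The MS+ call was lost in limma without FBS library 1 (adjusted p 0.0633), MS+ library 1 (0.0771) or MS+ library 2 (0.0570), and the MS− call without FBS library 1 (0.0535). Over all alternatives the adjusted p ran from 3.28e-06 to 0.0771 for MS+ and from 8.08e-08 to 0.0535 for MS−. MS+ over MS− gave 0.27, with a 95% limma interval from -0.15 to 0.68 and a limma adjusted p of 0.543 (0.311 with the block).

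Id3, a further E protein inhibitor and BMP target (NM_013058; chromosome 5, 154934138 to 154935707, plus strand), was measured at 313 and 265 CPM in FBS, 227 and 213 CPM in MS−, and 150.1 and 152.9 CPM in MS+. The 3 sera did not overlap, in the order FBS, MS−, MS+ from high to low. Means were 289 ± 34.0, 220.1 ± 9.83 and 151.5 ± 1.98 CPM (SD, n = 2 each). Id3 fell by 0.92 on the log2 scale in MS+ against FBS (SE 0.11, limma adjusted p 0.00690; 1.78e-06 with the block), with a call that was lost without MS+ library 1 (0.0582). MS− against FBS gave -0.39 (SE 0.11), with limma adjusted p of 0.102 without and 0.00515 with the block. MS+ against MS− gave -0.54 (SE 0.11), with limma adjusted p of 0.129 without and 0.00132 with the block, and a DESeq2 adjusted p of 0.0303. Over all alternatives this last adjusted p ran from 0.00132 to 0.477. The level in MS+ was 0.661 and 0.717 times that in MS− in the cells of rat 1 and rat 2.

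Id2, also an E protein inhibitor (NM_013060; chromosome 6, 42781476 to 42783307, minus strand), was measured at 37.0 and 30.2 CPM in FBS, 16.8 and 24.4 CPM in MS−, and 21.3 and 29.2 CPM in MS+. Both FBS libraries were the highest, by a small margin over MS+ library 2. Means were 33.6 ± 4.82, 20.6 ± 5.36 and 25.2 ± 5.60 CPM (SD, n = 2 each). The log2 fold change was -0.69 in MS− (limma adjusted p 0.151, and 0.0102 with the block, where Id2 fell) and -0.41 in MS+ (limma adjusted p 0.300 and 0.0937). In rat 1 the difference between MS+ and FBS was -0.77 and in rat 2 it was -0.05.

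Id4, the remaining member of the Id family (NM_175582; chromosome 17, 22525292 to 22527861, minus strand), was measured at 31.9 and 35.3 CPM in FBS, 33.3 and 37.8 CPM in MS−, and 41.1 and 51.4 CPM in MS+. It was the only Id gene with its highest levels in MS+, where both libraries lay above the other 4, while FBS and MS− overlapped. Means were 33.6 ± 2.40, 35.5 ± 3.17 and 46.2 ± 7.29 CPM (SD, n = 2 each). The log2 fold change of MS+ over FBS was 0.44 (SE 0.15, limma adjusted p 0.112), and Id4 rose with the block (0.0116). MS+ over MS− gave 0.36, with limma adjusted p of 0.326 and 0.0648 and an adjusted p of 0.0486 in edgeR with the block. MS− over FBS gave 0.08, with a 95% limma interval from -0.28 to 0.43.

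Summed over the 4 Id genes, the signal was 445 and 381 CPM in FBS, 294 and 297 CPM in MS−, and 235 and 257 CPM in MS+. Id1 made up 14.3% and 13.3% of it in FBS, 5.67% and 7.25% in MS− and 9.45% and 9.27% in MS+, while Id4 made up 7.17% and 9.28%, 11.3% and 12.7%, and 17.5% and 19.97%. These shares are of CPM and are not scaled for transcript length.

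Atoh8, a basic helix-loop-helix transcription factor induced by BMP and ALK1 signalling (NM_001109241; chromosome 4, 105499942 to 105532118, minus strand), was measured at 18.2 and 10.1 CPM in FBS, 0.732 and 0.723 CPM in MS−, and 0 and 1.47 CPM in MS+. These are 111 and 61 reads in FBS, 4 and 4 reads in MS−, and 0 and 8 reads in MS+, so that all 4 rat serum libraries were near the floor and the count of 0 allows up to 0.541 CPM. Means were 14.1 ± 5.70 CPM in FBS, 0.727 ± 0.00614 CPM in MS− and 0.734 ± 1.04 CPM in MS+ (SD, n = 2 each), that is 5.14% and 5.19% of the FBS mean. As a description, the log2 fold change against FBS was -3.08 for MS− and -3.22 for MS+ with a pseudocount of 1, and -5.11 for MS+ with a pseudocount of 0.1. Between MS+ and MS− it was -0.14 (limma adjusted p 0.930), with a 95% interval from -1.25 to 0.97 that the pseudocount of 1 narrows. With a pseudocount of 0.1 it was -1.06 (95% limma interval from -3.83 to 1.70), and in limma-voom it was -1.13 (-4.52 to 2.26). In edgeR and in DESeq2 it was 0.01. A difference was thus not detectable at this depth.

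Promoters from RefSeq on assembly GRCr8 were found for 8 of the 10 genes (not Smad6 and Bmp2), and the 250 bases before the start are shown for Atoh8 and Id1, which were low in both rat sera, for Id3, which was lowest in MS+, and for Id4, which was highest there. Capitals mark GTCT, the core letters that Smad3 and Smad4 bind, on either strand (AGAC on the strand shown). The windows are chr4:105850380-105850629 (minus strand), chr3:161671314-161671563 (plus), chr5:153656041-153656290 (plus) and chr17:16598294-16598543 (minus), each written 5′ to 3′ along its gene.
Atoh8: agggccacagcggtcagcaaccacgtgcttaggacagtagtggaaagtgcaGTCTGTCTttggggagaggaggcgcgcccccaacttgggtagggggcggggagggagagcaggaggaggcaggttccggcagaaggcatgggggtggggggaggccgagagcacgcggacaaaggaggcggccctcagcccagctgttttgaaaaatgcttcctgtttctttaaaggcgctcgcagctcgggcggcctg
Id1: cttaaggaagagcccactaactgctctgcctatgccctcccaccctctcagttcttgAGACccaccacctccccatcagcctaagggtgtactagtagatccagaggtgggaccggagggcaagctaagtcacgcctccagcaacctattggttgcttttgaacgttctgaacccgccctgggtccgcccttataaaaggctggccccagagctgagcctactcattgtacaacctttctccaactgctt
Id3: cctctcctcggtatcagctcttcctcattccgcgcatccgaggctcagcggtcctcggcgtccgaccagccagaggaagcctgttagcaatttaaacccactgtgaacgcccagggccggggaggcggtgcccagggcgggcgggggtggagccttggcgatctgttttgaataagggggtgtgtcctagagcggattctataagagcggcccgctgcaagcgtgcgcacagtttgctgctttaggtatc
Id4: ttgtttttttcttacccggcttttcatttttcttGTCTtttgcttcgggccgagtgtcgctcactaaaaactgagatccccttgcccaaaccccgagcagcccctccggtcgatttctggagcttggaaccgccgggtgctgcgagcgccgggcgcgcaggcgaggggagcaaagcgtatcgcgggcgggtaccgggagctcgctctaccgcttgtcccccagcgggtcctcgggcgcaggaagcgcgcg
GTCT was found 2 times in Atoh8, with the copies side by side, 1 time each in Id1 and Id4, and not in Id3. Over all 33469 promoters of this length 84.0% hold GTCT, so that a match is no mark of these genes. GGCGCC, the GC-rich element to which Smad1 and Smad5 bind, is in 8.69% of all promoters, in none of the 4 shown nor in those of Id2 and Bmp4, and occurs 2 times in Smad7 and 1 time in Grem1. GGCGCC followed by GTCT after any 5 bases is in 14 of all promoters and in none of the 8. The E-box CANNTG, where E proteins bind and which may overlap the other motifs, is in 65.5% of all promoters, in Atoh8 (2 times), Id1 (1), Id2 (1) and Bmp4 (2), and in none of Id3, Id4, Smad7 and Grem1. No match in such a window says only that these letters are not in it.

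**Figure D2:**
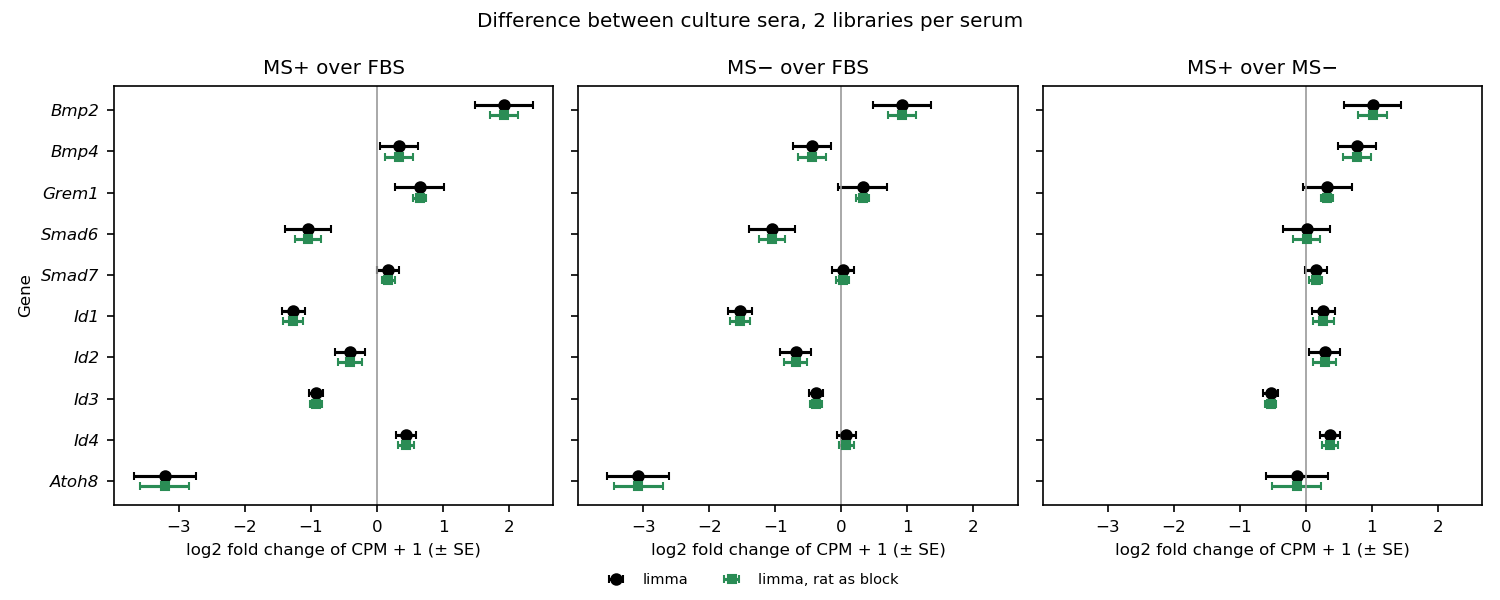
Log2 fold change of CPM + 1 for the 10 genes in each comparison, with SE bars from limma without (black) and with (green) the rat as a block; n = 2 libraries per serum. Bmp2 has the highest value in MS+ over FBS (1.93), Id1 and Smad6 are lower in both rat sera than in FBS, and Id3 is the gene furthest below 0 in MS+ over MS− (-0.54).

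Set side by side, the 9 genes other than Atoh8 had 4 lower and 5 higher log2 fold changes in MS+ over FBS (median 0.17, all features 0.00078), and 5 lower and 4 higher in MS− over FBS (median -0.39, all features 0.014). In MS+ over MS−, 8 of the 10 were higher and Atoh8 and Id3 lower (median 0.28, all features -0.0058).

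The direction was the same in the cells of both rats for 9 of 10 genes in MS+ against FBS, 9 of 10 in MS− against FBS and 7 of 10 in MS+ against MS−. Atoh8, treated as the gene that selected the set, is counted in both comparisons against FBS. The share of all features with the same direction in both rats was not computed. The sizes of the member differences were not the same in both rats. Against FBS, rat 1 had the larger difference for Bmp2 (2.53 against 1.33 in rat 2 on the log2 scale for MS+), Smad6 (-1.58 against -0.51) and Id1 (-1.48 against -1.05). The FBS libraries themselves differed by rat, with rat 2 above rat 1 by 1.46 for Bmp2, 0.91 for Bmp4 and 1.00 for Grem1. Rat 2 was below rat 1 there by a log2 difference of -1.18 for Smad6 and -0.33 for Id1. In MS+ the rats were closer for Bmp2 (0.26), Bmp4 (-0.05) and Smad6 (-0.12).

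**Figure D3:**
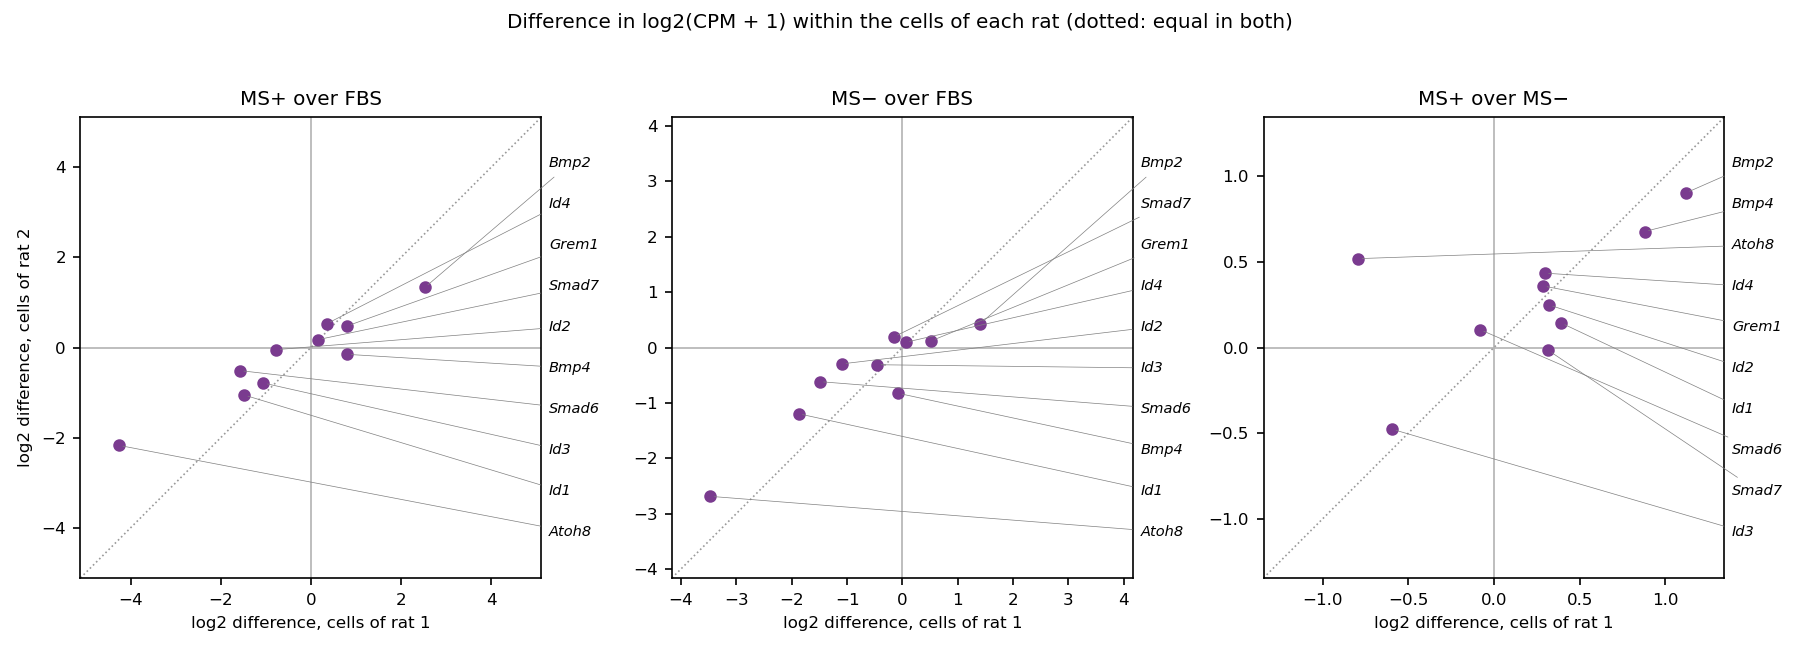
Log2 difference of CPM + 1 within the cells of rat 1 (x axis) and rat 2 (y axis) for each gene and comparison, with axis ranges that differ between panels; points on the dotted line have equal differences in both rats. In MS+ over FBS, Bmp2 lies at 2.53 and 1.33 and Smad6 at -1.58 and -0.51, and in MS+ over MS− Atoh8, Smad6 and Smad7 have opposite signs.

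By the smallest root mean square difference of centred log2(CPM + 1) over the 6 libraries, the features most like Atoh8 were Mt1a (0.54), Mcm3 (0.62), Cdc6 (0.64), Mt2A (0.64) and Fam64a (0.65). Mt1a and Mt2A encode metallothioneins, and Mcm3 and Cdc6 act in the start of DNA replication. Those most like Id1 were Ezh2 (0.14), Ccne1 (0.17), Cenpn (0.17), Fanca (0.18) and LOC303566 (0.18), among them the histone methyltransferase Ezh2 and cyclin E1. Those most like Id3 were Itpkb (0.069), Rap1gap2 (0.074), Aff3 (0.077), Azi1 (0.085) and Csrp2bp (0.085). The points share libraries and depth, and these values are a description.

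The rest of the pathway was read from 6 lists with 75 genes, of which 67 were in the table, 60 had reads and 54 were tested. In MS+ against FBS 7 of 54 passed (13.0%, 3 higher and 4 lower), beside 9.61% of all features, and with the block 28 (51.9%), beside 28.2%. In MS− against FBS 2 passed (3.70%, both higher), beside 4.81%, and with the block 25 (46.3%), beside 20.5%. In MS+ against MS− 0 passed, beside 0.0204%, and with the block 4 (7.41%), beside 10.1%. The shares without the block were thus near those of all features, and that of MS+ against MS− with the block was below it. In MS+ against MS− 7 were at unadjusted p under 0.05 in limma, beside 1446 of all 9820 features. By adjusted p, edgeR and limma-voom called 0 of the 54 and DESeq2 1. Without MS+ library 1 the count for MS+ against FBS was 0, without FBS library 1 or MS+ library 2 it was 2, and without FBS library 2 it was 3. For MS− against FBS it was 0 without either MS− library and 1 without FBS library 1 or either MS+ library. Medians over the 54 were -0.10, 0.01 and -0.05 on the log2 scale.

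Of 4 ligands tested, Gdf6, a BMP family member of joint development, rose in both sera, from 4.26 and 9.62 CPM in FBS to 26.3 and 28.0 CPM in MS− and 23.8 and 29.4 CPM in MS+. Its log2 fold change was 1.88 in MS+ (SE 0.32, limma adjusted p 0.0181) and 1.92 in MS− (SE 0.32, 0.0235). With the block all 4 ligands were higher in MS− than in FBS, Bmp3 by 0.53 (limma adjusted p 0.0127, named after its values were seen), Bmp6 by 0.46 (0.0228) and Gdf10 by 0.65 (0.0498) beside Gdf6, and none but Gdf6 passed in MS+. Of all features, 20.5% passed in MS− and 28.2% in MS+ against FBS with the block. Between the rats the levels lay further apart for 2 of them: Gdf10 was at 0.819 to 1.46 CPM in the libraries of rat 1 and 20.7 to 38.3 CPM in those of rat 2, and Bmp6 at 72.8 to 83.0 CPM and 17.6 to 29.8 CPM.

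Of 8 receptors and co-receptors tested, the endothelial type I receptor Acvrl1 (ALK1) fell in MS+, from 103 and 104 CPM in FBS to 51.5 and 66.3 CPM, with 65.7 and 78.6 CPM in MS− (log2 fold change -0.82 in MS+, limma adjusted p 0.0226; -0.52 in MS−, 0.108 and, with the block, 0.00234). Of the endothelial markers, Tek (34 reads over all 6 libraries) averaged 1.32 CPM in FBS, 0.822 CPM in MS− and 0.816 CPM in MS+. Pecam1 had 1 read, and the markers at 0 are given above. Whether endothelial cells contribute to Acvrl1 was not tested. With the block the type I receptor Bmpr1b was higher by 1.47 in MS+ (limma adjusted p 0.000508) and 1.02 in MS− (0.00946), at 1.47 to 14.1 CPM per library, and the type II receptor Bmpr2 by 0.45 (0.0386) and 0.62 (0.00887). Without the block neither passed (limma adjusted p 0.17 and 0.39 for Bmpr1b, 0.29 and 0.22 for Bmpr2). With it, 28.2% of all features passed in MS+ and 20.5% in MS− against FBS.

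Of 14 antagonists and extracellular regulators tested, 0 passed in limma without the block in any comparison, with 4 (MS+ against FBS), 3 (MS− against FBS) and 3 (MS+ against MS−) at unadjusted p under 0.05. Of all 9820 features, 2703, 2074 and 1446 in turn were at unadjusted p under 0.05. By adjusted p, edgeR and limma-voom called 0 of the 14 in each comparison, and DESeq2 called 1, 2 and 1. With the block, noggin (Nog), which binds BMPs directly, was lower in both sera, at 15.9 and 7.96 CPM in FBS, 2.38 and 3.98 CPM in MS−, and 5.04 and 6.24 CPM in MS+ (log2 fold change -1.58 in MS−, limma adjusted p 0.00112, and -0.89 in MS+, 0.0308). The activin-binding Fstl3 was higher in both (0.89 in MS+, limma adjusted p 2.87e-06; 1.14 in MS−, 2.62e-07), and follistatin (Fst) was higher in MS+ than in FBS (0.96, 0.00128) and MS− (0.61, 0.0496). Chrdl1 was higher in MS− than in FBS (0.85, limma adjusted p 0.0238 with the block). Bmper was lower in MS+ than in MS−, at 111 and 100.2 CPM against 157 and 155 CPM (log2 fold change -0.56, limma adjusted p 0.00126 with the block, 0.111 without).

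Of 9 Smads and their regulators tested, 4 passed in MS+ against FBS, beside 9.61% of all features. Tob1, which restrains Smad signalling, rose from 74.7 and 81.7 CPM in FBS to 151 and 139 CPM in MS+ (log2 fold change 0.88, SE 0.10, limma adjusted p 0.00581) and to 136 and 137 CPM in MS− (0.79, 0.00786). Smad1 rose by 0.50 (limma adjusted p 0.0220), while Smad2 and the ubiquitin ligase Smurf2 fell by 0.43 (0.0456) and 0.54 (0.0181); these 3 were named after their values were seen. Smurf2 was also lower in MS+ than in MS− with the block (-0.36, limma adjusted p 0.0170). The ubiquitin ligase Smurf1 was higher with the block in both sera (0.41 in MS+, limma adjusted p 0.00135; 0.39 in MS−, 0.00260). Smad9, at 1.80 to 7.79 CPM, was lower in both with the block (-1.21 in MS+, 0.00149; -0.72 in MS−, 0.0451).

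Of 13 other BMP-responsive transcription factors tested, 12 had a lower fitted value in MS+ than in FBS (median -0.45 against 0.00078 for all features). Among them 1 fell without the block (Msx1) and 7 with it, beside 9.61% and 28.2% of all features called in either direction. Msx1 was at 37.5 and 35.3 CPM in FBS, 24.7 and 23.7 CPM in MS−, and 20.4 and 18.4 CPM in MS+ (log2 fold change -0.88 in MS+, SE 0.13, limma adjusted p 0.0114; -0.57 in MS−, 0.0568, and 0.00666 with the block). Dlx2 was at 14.4 and 4.48 CPM in FBS and 1.45 to 2.56 CPM in the rat sera (limma adjusted p with the block 0.00117 in MS+ and 0.00146 in MS−). Dlx1, Dlx3, Hey1 and Gata2 were also lower in both sera with the block (log2 fold changes from -0.51 to -1.14 in MS+). Hey1 had 38 reads over all 6 libraries and was near the floor in the rat sera, at 0.183 to 0.904 CPM. In MS− against FBS 8 of the 13 were lower (median -0.15), 0 passed in limma without the block (4 at unadjusted p under 0.05, and edgeR, limma-voom and DESeq2 each called 1), and 6 fell and 1 rose with it (Hes1, 0.46, limma adjusted p 0.0365). In that comparison 2074 of all 9820 features were at unadjusted p under 0.05, and 20.5% passed with the block. Hes1 was lower in MS+ than in MS− (-0.74, limma adjusted p 0.00476 with the block, 0.283 without).

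Of 6 basic helix-loop-helix partners of Id proteins tested, 0 passed in limma, edgeR, limma-voom or DESeq2 without the block (1, 2 and 0 at unadjusted p under 0.05 in limma for MS+ against FBS, MS− against FBS and MS+ against MS−), and the median was -0.06 in MS+ and -0.08 in MS− against FBS. Of all 9820 features, 2703, 2074 and 1446 in turn were at unadjusted p under 0.05 in limma. With the block, Tcf3 (-0.36, limma adjusted p 0.0132) and Twist1 (-0.43, 0.0221) were lower in MS+ than in FBS, the first an E protein and the other a mesenchymal transcription factor, both named after their values were seen. Bhlhe40 was higher with the block in both sera (0.39 in MS+, limma adjusted p 0.0354; 0.54 in MS−, 0.00744).

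**Figure D4:**
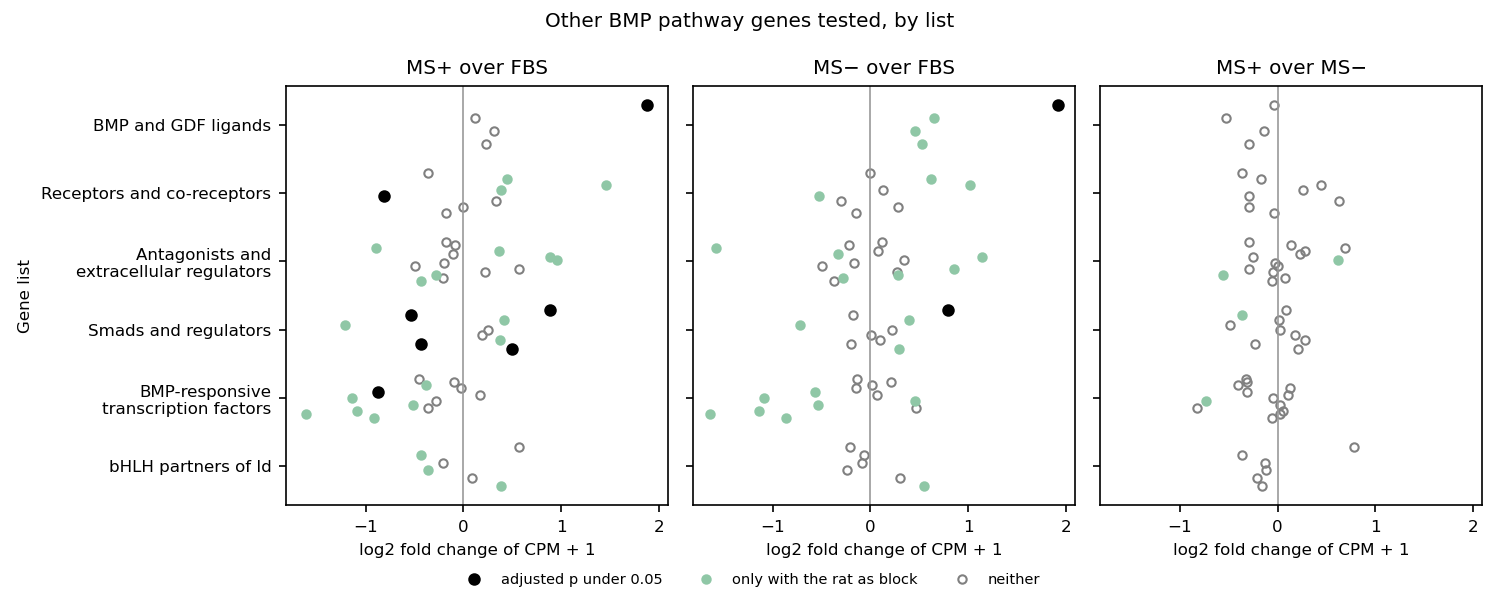
Log2 fold change of CPM + 1 for the 54 other pathway genes tested, by list and comparison; black points passed an adjusted p of 0.05 in limma, green points only with the rat as a block, and open points neither. Gdf6 lies furthest right against FBS (1.88 and 1.92), and 12 of 13 BMP-responsive transcription factors lie left of 0 in MS+ over FBS.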

How the data were processed

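Reads of 6 poly(A) libraries were filtered by the sequencing company, aligned by the authors to the rat genome rn4 with bowtie2 (2.1.0) and counted per transcript with HTSeq (0.5.4p3) in its intersection-nonempty mode, with strand use not stated. The authors deposited a normalized signal, CPM with library sizes scaled by the TMM method of edgeR, for 17221 transcript rows, which keeps samples comparable but drops reads shared by overlapping transcripts. No gene of the set overlapped another row. Whole reads were recovered from each column (100% of values whole within 1e-06 reads).

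Features with at least 1 CPM in both libraries of at least 1 serum (9820) were tested with limma (3.58.1, R 4.3.3; lmFit, eBayes with trend, two-sided) on log2(CPM + 1) over all 6 libraries, with serum as the only term and Benjamini-Hochberg adjustment. The log2(CPM + 1) scale understates changes of low genes. The labels name the same 2 rats in each serum, so the rat was also fitted as a block; differences between rats correlated across features by 0.49 to 0.62 between sera. Libraries of 1 serum were not copies (chi-square per degree of freedom 13.6 to 15.1). Alternatives were a pseudocount of 0.1, no filter, DESeq2 size factors, library totals, edgeR (4.0.16), limma-voom and DESeq2 (1.42.0) on the recovered reads, edgeR with the block, and each library left out. Code was tested on simulated data. Named were all 10 genes, the pathway genes with the largest changes past the threshold (up to 20), the most abundant of each list, and the 5 features most like Atoh8, Id1 and Id3. For 1 gene that this rule names, the result is not reported here. Members and lists were chosen with earlier results of these data known. Positions are rn4, written 1-based, and the GRCr8 RefSeq table, used for names and promoters, held the accession of 15958 rows (92.7%). Protein sequences were not used here.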

Additional observations from a re-analysis of the deposited data

Results flagged for a closer look

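A total of 5 differences had opposite signs in the cells of the 2 rats, each with 1 library per rat and serum; whether the rats differ was not tested. In MS+ against MS−, the log2 difference was -0.792 in rat 1 and 0.519 in rat 2 for Atoh8, which rests on 8 reads or fewer per library, -0.0811 and 0.104 for Smad6, and 0.318 and -0.0173 for Smad7. In MS− against FBS, it was -0.153 and 0.194 for Smad7. In MS+ against FBS, it was 0.808 and -0.151 for Bmp4, whose FBS libraries were at 9.66 and 19.1 CPM.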

How the results depend on the processing

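For MS+ against FBS, MS− against FBS and MS+ against MS− in turn, the replicate block (the rat) called 2773, 2011 and 987 of all features, 6, 6 and 4 of the member genes, and 28, 25 and 4 of the pathway genes. The edgeR fit with the replicate block called 2861, 2073 and 1015 features, 6, 6 and 5 members, and 28, 25 and 5 pathway genes. Without the filter the features called were 586, 255 and 0, and 1 pathway gene was called in MS− against FBS. DESeq2 called 2 members and 5 pathway genes in MS− against FBS, and 123 features, 1 member and 1 pathway gene in MS+ against MS−, where limma-voom called 4 features. Leaving out 1 library gave 25 to 602, 105 to 280 and 0 to 0 features, 0 to 4, 0 to 3 and 0 to 0 members, and 0 to 6, 0 to 3 and 0 to 0 pathway genes; with 1 library left in a serum, it is assumed to vary like the others.

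The tested member comparisons in each setting were set against limma without the block. Of these values 359 kept direction and side of the threshold, 31 gained a call, 11 lost it and 19 changed sign. No value that passed in limma without the block changed sign. Grem1, which passed with the block, changed sign with 1 library left out in MS+ against MS− and in MS− against FBS. Atoh8 in MS+ against MS− was 0.0116 in edgeR, 0.0135 in DESeq2 and 0.0123 in edgeR with the block. Smad6 in MS+ against MS− was -0.0054 with library totals, and Smad7 in MS− against FBS was -0.0103 with library totals, -0.0064 in edgeR and -0.0029 in DESeq2. With 1 library left out, the log2 fold changes that changed sign ran from -0.79 to 0.51 for Atoh8, -0.14 to 0.16 for Smad6, -0.033 to 0.33 for Smad7 and -0.012 to 0.66 for Grem1 in MS+ against MS−, from -0.17 to 0.21 for Smad7, -0.012 to 0.17 for Id4, -0.91 to 0.0069 for Bmp4 and -0.18 to 0.82 for Grem1 in MS− against FBS, and from -0.018 to 0.36 for Smad7 and -0.13 to 0.78 for Bmp4 in MS+ against FBS. The cause was not tested. Atoh8 against FBS kept its sign in each setting, from -5.20 to -2.56 for MS+ and from -4.29 to -2.69 for MS−. Depth limits Atoh8, which had at most 8 reads per rat serum library.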
